A study of Mus musculus with 19 samples.

Results

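RNA of 2cell embryos from CPEB3-/- females was compared with RNA of CPEB3-/- MII oocytes, the mature oocytes arrested in metaphase of the second meiotic division. The comparison rests on 9 of the 19 samples of the series, chosen by their labels: 5 MII samples (A to E) and 4 2cell samples (A to D). Of 25891 genes in the table, 13458 had at least 0.1 FPKM in 4 of these 9 samples and were compared. FPKM (fragments per kilobase of exon, scaled to the mapped fragments of each sample) was the unit of the deposited values. The 10 samples labelled as heterozygous (CPEB3+/-), 5 MII and 5 2cell, were used only to test whether the transition differed between the genotypes. All donors were BL6 females aged 6 to 10 weeks that received 5 IU PMSG and, 48 h later, 5 IU hCG to induce ovulation. Zygotes from mated females were recovered 17 h after hCG and cultured in M16 medium, and 2cell embryos were collected 37 h after hCG. In its fertility and embryo experiments the study mated the females with wild-type males, and it gives no separate mating for the sequenced embryos. The genotype label of 2cell embryos therefore names the mother's genotype, not that of the embryo. CPEB3-/- females carried CPEB3 LoxP/LoxP with ZP3 Cre+/-, so Cre recombinase came from the promoter of an egg coat gene that is active in growing oocytes, and the deletion was restricted to the mother's germ line. The alleles behind the heterozygous label are not fully given in the sources used here, and the study states that some CPEB3 protein remained in the CPEB3-/- oocytes. Each sample held the RNA of 5 cells, copied from its poly(A) tails. A longer tail, more RNA per cell and more cells therefore cannot be told apart. No source used here says that the samples of a group came from separate females, so p-values measure the spread between these samples, which may be technical.

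The growing oocyte stores mRNAs that are translated or degraded as meiosis resumes, at a time when its own genome is silent. CPEB proteins bind U-rich cytoplasmic polyadenylation elements in the 3′UTR and regulate tail length and translation of such stored mRNAs. In the mouse, most maternal RNA is cleared by the end of the 2cell stage, while the embryonic genome is switched on, with a set of 2cell-specific genes such as the Zscan4 family among the transcripts that appear.

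Cpeb3 RNA was not lower in the samples labelled CPEB3-/-. Its FPKM was 0.215, 0.141, 0.164, 0.131 and 0.157 in CPEB3-/- MII samples and 0.0599, 0.0362, 0.0633 and 0.0624 in CPEB3-/- 2cell samples, against 0.0450 to 0.101 in heterozygous MII and 0.0204 to 0.0566 in heterozygous 2cell samples. These are values of the whole gene and do not show which exons were read, and the separate RNA and protein assays by which the study checked the deletion are not analysed here. CPEB3-/- means throughout the samples labelled so, whatever CPEB3 they held. Estimated depth was 19.7 to 22.8 M fragments (mega) in CPEB3-/- MII and 17.2 to 19.3 M in CPEB3-/- 2cell samples (two-sided exact permutation test over all arrangements of the 9 samples, p = 0.0159). All 11 oocyte markers were detected, and their summed FPKM was 1918 to 2904 in MII and 321 to 545 in 2cell samples. Y-linked genes, which can come only from the father, summed to a median of 0.00747 FPKM in MII and 0.354 in 2cell samples without overlap (exact permutation p = 0.00794, the smallest that 5 against 4 samples allow). Summed markers of cumulus and granulosa cells were 0.314 to 0.672 FPKM in MII and 0.723 to 1.397 in 2cell samples, and summed sperm markers were 2.04 to 2.44 and 2.49 to 3.58. With each sample scaled to the same FPKM sum, the order of the sperm markers turned, with means of 2.97 in MII and 2.62 in 2cell samples. Of the 8 blood markers 4 were in the table, and alpha globin (Hba-a1 and Hba-a2) rose from 0.0984 to 0.212 FPKM in MII samples to 46.2 to 95.9 in 2cell samples, while the other markers summed to 1.55 to 2.49 and 1.06 to 1.60. The part of such cells in the results was not tested. The 13 protein-coding genes of the mitochondrial genome took 4.25 to 7.72% of the FPKM sum in MII and 14.2 to 21.5% in 2cell samples.

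Between MII and 2cell, 9044 of the 13458 genes changed in CPEB3-/- samples (limma adjusted p under 0.05 and more than 1.5-fold). Of the genes tested, 5051 (37.5%) were higher and 3993 (29.7%) were lower in 2cell embryos, and the median log2 fold change over all genes was 0.12. Fold changes here are on the scale of log2(FPKM + 0.1) after scaling between samples, which understates changes of genes near 0, while levels are FPKM as deposited. The balance between rises and falls depended on the scaling. Higher genes made up 55.8% of the calls, 58.3% with the values as deposited, 44.8% when each sample was scaled to the same FPKM sum and 41.5% after quantile scaling, and the median log2 fold change moved to 0.20, -0.25 and -0.35.

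Genes were sorted into classes by their level and call. Of 4495 maternal genes, those with a mean of at least 1 FPKM in MII samples, 804 (17.9%) were lost, which means called lower and at least 4-fold. A further 1480 (32.9%) were reduced by less than 4-fold, 1424 (31.7%) were retained in that no change was called, and 787 (17.5%) were raised. Another 911 genes were embryonic, with a mean under 0.1 FPKM in MII and at least 1 FPKM in 2cell samples, and 507 of these were protein-coding, 149 processed pseudogenes and 74 lincRNAs. An embryonic gene passes the filter on low values only through the 2cell samples, so this count describes the transition and is no test. In the gene lists below, members of this class can likewise only be called higher. The classes were cut from these samples, so the direction in which their shares of the FPKM sum moved is fixed and only its size is described. The lost genes took a mean of 21.3% of the FPKM sum in MII samples and 1.70 to 2.25% in 2cell samples. The embryonic genes took 0.0271 to 0.0336% of the sum in MII samples and 3.96 to 4.45% in 2cell samples. The raised genes, which include the mitochondrial genome, took 19.2 to 23.0% and 49.8 to 57.4%. Loss was least frequent among the least abundant maternal RNAs: 14.3% of genes at 1 to 5 FPKM in MII were lost, 22.9% at 5 to 20 FPKM, 27.1% at 20 to 100 FPKM and 22.7% above 100 FPKM. Leaving out 1 sample at a time moved the lost class between 790.0 and 825 genes, while it held 1278 with equal FPKM sums and 312 with a pseudocount of 1 FPKM.

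**Figure D1:**
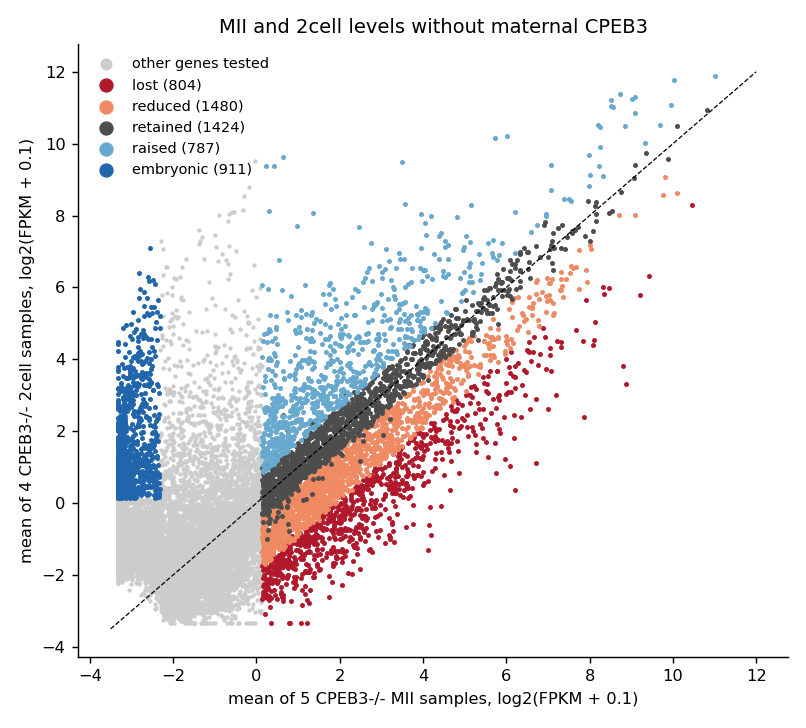
Mean level of each of the 13458 genes in CPEB3-/- MII oocytes (x axis, log2(FPKM + 0.1), 5 samples) and CPEB3-/- 2cell embryos (y axis, same unit, 4 samples), with the class of each gene in colour and no change on the dashed line. The 804 lost and 1480 reduced maternal genes lie under the line, the 787 raised ones above it, and the 911 embryonic genes stand at the left edge, under 0.1 FPKM in MII samples.

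Features that the classes did not use are given as descriptions. The median transcript length of protein-coding genes was 2817 bases in the lost, 3056.5 in the reduced and 2862 in the retained class. It was 1788 bases in the raised and 1956 in the embryonic class, against 3038 in all protein-coding genes tested. The median 3′UTR was 834 bases in the lost, 986 in the reduced, 1012 in the retained, 579 in the raised and 561 bases in the embryonic class. In all protein-coding genes tested it was 1002 bases. The letters TTTTAT or TTTTAAT, which spell the common forms of the cytoplasmic polyadenylation element, stood in the last 100 bases of the annotated 3′UTR of 25.5% of lost, 25.7% of reduced, 21.7% of retained, 14.2% of raised and 12.1% of embryonic genes, against 19.1% of all protein-coding genes tested. The polyadenylation hexamer (AATAAA or ATTAAA) stood in the same 100 bases of 82.7, 85.9, 84.6, 80.0 and 76.2% of these classes, in the same order. The median GC content of their transcripts was 47.0, 47.7, 48.0, 50.8 and 51.5%, against 49.1% in all protein-coding genes tested. The part of base composition in the frequency of these letters was not tested. A match is a description of the annotated end, and no binding was measured.

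The ends of 6 maternal RNAs with these letters are shown because they span lost and retained RNAs and include Plat, the textbook example of an oocyte mRNA under cytoplasmic polyadenylation. Each line is 30 bases of the 3′UTR on the transcript's strand (GRCm38, plus strand in all 6), and the capitals mark the element letters. Plat lies at chr8:22782752-22782781, H1foo at chr6:115950165-115950194, Bub1b at chr2:118641561-118641590, Gdf9 at chr11:53437862-53437891, Btg4 at chr9:51119805-51119834 and Khdc1b at chr1:21386344-21386373.
Plat: tataTTTTAATctattttagtttttacttt
H1foo: aagcTTTTATtgtctaataagctgtcacaa
Bub1b: tgtaTTTTATaataaaatagtttttgttac
Gdf9: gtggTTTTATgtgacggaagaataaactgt
Btg4: ccctTTTTATgtctttttaaaagtttgatt
Khdc1b: tctttggaacattaaagtttgTTTTATtta
Plat, H1foo, Bub1b and Gdf9 were lost, Btg4 was reduced and Khdc1b was retained, so RNAs with the same letters took different courses. The sites were not alike. In Plat, H1foo, Bub1b and Gdf9 the letters lie before the polyadenylation hexamer. In Khdc1b they lie after it, 3 bases from the annotated end, and for Btg4 no hexamer was found. The courses are therefore not a comparison of equal sites. The letters were absent from the last 100 bases of the annotated 3′UTR of Mos and Zar1, which were lost, of Ccnb1, which was reduced, and of Dppa3 and Cnot7, which were retained.

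The largest falls among abundant protein-coding RNAs included regulators of meiosis. H1foo (chr6:115944938-115950237), the linker histone of the oocyte, had 355, 424, 505, 559.6 and 517 FPKM in MII and 9.46, 10.7, 11.7 and 7.19 FPKM in 2cell samples. It fell 51.5-fold (log2 -5.69 ± 0.19 SE, limma adjusted p = 4.1e-09). Mos (chr4:3870657-3872106), the kinase that holds the oocyte in metaphase II, had 63.2, 50.5, 82.9, 65.8 and 75.2 FPKM in MII and 2.88, 0.744, 2.24 and 1.97 FPKM in 2cell samples. Mos fell 38.2-fold (log2 -5.26 ± 0.32, adjusted p = 2.2e-07), and every 2cell sample lay below every MII sample by more than 10-fold. Bub1b (chr2:118598211-118641592), a component of the spindle checkpoint, had 17.98, 17.5, 18.6, 17.9 and 18.9 FPKM in MII and 0.456, 0.473, 0.382 and 0.456 in 2cell samples, with a narrow spread in both groups. It fell 35.9-fold (log2 -5.17 ± 0.11, adjusted p = 5.0e-10). Rgs2, a regulator of G protein signalling, fell from 447 ± 57.2 to 14.1 ± 0.999 FPKM (SD, n = 5 and 4), and Psma7, a subunit of the proteasome core, from 233 ± 38.0 to 5.14 ± 0.353 FPKM. Gm813, 2310033P09Rik and Tmem50a completed the 8 largest falls, with log2 fold changes of -5.96 ± 0.22, -5.71 ± 0.19 and -5.58 ± 0.23. Only genes with no overlap between MII and 2cell samples could enter these 8.

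**Figure D2:**
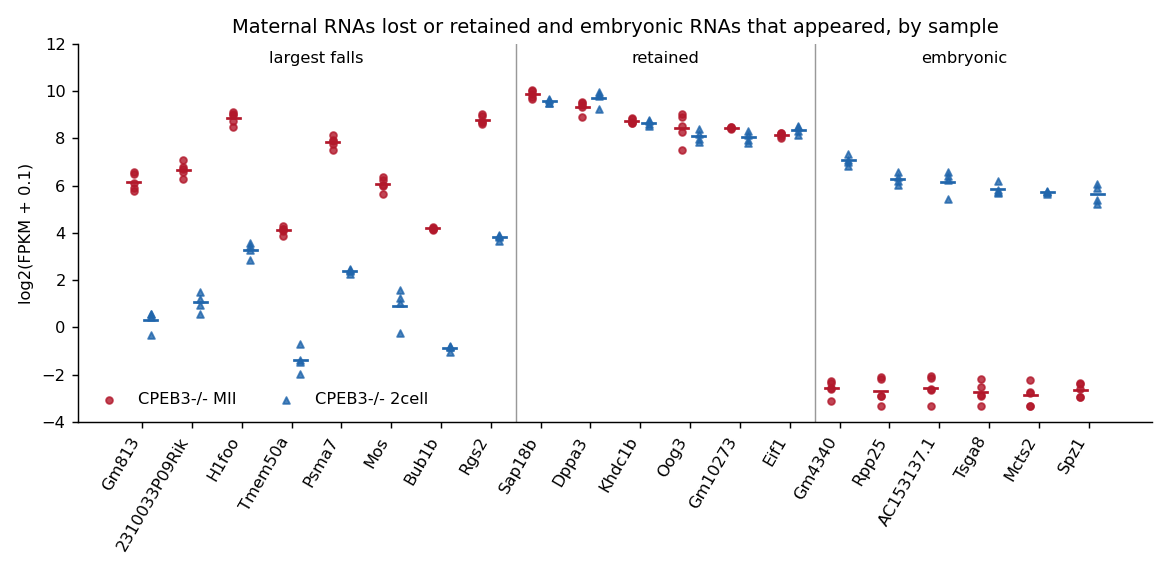
Level of each CPEB3-/- sample (y axis, log2(FPKM + 0.1)) for the 8 largest falls, the 6 most abundant retained and the 6 most abundant embryonic protein-coding RNAs, with MII oocytes as circles, 2cell embryos as triangles and the group mean as a bar. The choice of genes fixes the separation in the left and right panels, and MII and 2cell samples overlap in 5 of the 6 retained genes.

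Most RNAs of secreted and egg coat proteins fell. Of 13 such genes, all of which passed the filter, 10 were lower and 2 higher in 2cell embryos, against 29.7% and 37.5% of all genes, with a median log2 fold change of -1.29 against 0.12. Gdf9, the growth factor through which the oocyte acts on its follicle, had 289, 272, 288, 254 and 268 FPKM in MII and 23.4, 23.8, 20.7 and 25.2 FPKM in 2cell samples and fell 12.6-fold (log2 -3.66 ± 0.10, adjusted p = 1.1e-09). Its partner Bmp15 fell less, from 165 ± 41.3 to 53.2 ± 11.4 FPKM. Among the RNAs of the zona pellucida, Zp1 fell from 7.20 ± 0.667 to 2.29 ± 0.367 and Zp3 from 8.54 ± 1.05 to 3.58 ± 0.353 FPKM, while Zp2 had 1.75 ± 0.201 and 1.86 ± 0.362 FPKM and was not called (log2 -0.02, 95% interval -0.37 to 0.33). Astl, the protease that cleaves ZP2 after fertilization, fell from 1.44 ± 0.267 to 0.150 ± 0.0621 FPKM. The rises were those of Cd9, a membrane protein needed for gamete fusion, and of Fgf8, both from under 0.4 FPKM. Neither rise was called with a pseudocount of 1 FPKM. That of Fgf8 was also not called with equal FPKM sums, after quantile scaling or without MII sample B or 2cell sample C, and its log2 fold change was -0.13 when a trend with GC content was removed.

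Of 28 genes of metaphase II arrest and the meiotic cell cycle, 25 passed the filter, 13 were lower and 4 higher (median -0.62), against 29.7% and 37.5% of all genes. Lost were Mos, Bub1b, Ccnb2, Cdc25a, Aurkc and Tpx2. Cdc25a, a phosphatase that activates cyclin-dependent kinases, fell from 5.44 ± 0.349 to 1.10 ± 0.171 FPKM, and Aurkc, the Aurora kinase of the germ line, from 13.7 ± 2.50 to 1.53 ± 0.228 FPKM. Ccnb1, which encodes cyclin B1, had 43.1, 81.1, 86.1, 124 and 112 FPKM in MII and 38.8, 41.1, 35.1 and 24.5 FPKM in 2cell samples. It fell 2.62-fold (log2 -1.39 ± 0.32, adjusted p = 0.0025). Rises were called for Cdk1, the partner kinase of cyclin B1 (3.51 ± 0.753 to 9.37 ± 1.17 FPKM), for Aurkb, the Aurora kinase of somatic mitosis (0.396 ± 0.119 to 2.67 ± 0.585 FPKM), for Cdc25c (0.0909 ± 0.0341 to 1.07 ± 0.252 FPKM) and for Fzr1, an activator of the anaphase-promoting complex.

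RNAs of the machinery that removes maternal RNA were more often lower than higher. Of 29 genes of mRNA decay 25 passed the filter, and 13 were lower and 4 higher (median -0.83), against 29.7% and 37.5% of all genes. Btg4, the adaptor that brings the deadenylase to maternal mRNAs, had 18.6, 36.2, 42.5, 61.3 and 62.4 FPKM in MII and 22.0, 25.6, 28.1 and 14.2 FPKM in 2cell samples. The groups overlapped, and the fall was 1.99-fold (log2 -0.99 ± 0.37, adjusted p = 0.035), which was not called when MII sample C, D or E or 2cell sample A or D was left out. Of the catalytic subunits of the CCR4-NOT deadenylase, Cnot6l fell from 3.62 ± 0.348 to 1.395 ± 0.314 FPKM, whereas Cnot7 had 10.2 ± 3.35 and 9.71 ± 1.63 FPKM and no change was called (log2 -0.12, 95% interval -0.73 to 0.48). Pabpn1l, the poly(A) binding partner of BTG4, fell from 13.5 ± 2.10 to 0.564 ± 0.252 FPKM. The decapping genes Dcp1a, Dcp2 and Edc4 fell as well. Zfp36l2 and Tob1, which recruit the same deadenylase to chosen mRNAs, rose, Zfp36l2 from 0.605 ± 0.234 to 11.1 ± 1.04 FPKM and Tob1 from 1.32 ± 0.722 to 6.86 ± 0.669 FPKM.

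Of 24 genes of the CPEB and poly(A) machinery 23 passed the filter, and 10 were lower and 7 higher (median -0.13), against 29.7% and 37.5% of all genes and with 4 and 4 at a pseudocount of 1 FPKM. Cpeb1, the family member of the oocyte, fell from 0.696 ± 0.0863 to 0.132 ± 0.0208 FPKM, and Cpeb3 fell from 0.162 ± 0.0325 to 0.0554 ± 0.0129 FPKM. Cpeb2 rose from 0.0121 ± 0.00535 to 0.595 ± 0.164 FPKM and Cpeb4 from 0.366 ± 0.0422 to 0.749 ± 0.0904 FPKM. At the poly(A) tail itself, Pabpc1, the main cytoplasmic poly(A) binding protein of somatic cells, had 0.122, 0.0977, 0.165, 0.0961 and 0.101 FPKM in MII and 5.10, 4.50, 3.71 and 5.90 in 2cell samples and rose 21.3-fold, while its oocyte form Pabpc1l fell from 0.663 ± 0.190 to 0.293 ± 0.103 FPKM. Several of these genes lay under 1 FPKM, where 10 fragments on a transcript of median length (2420 bases) amount to 0.21 FPKM.

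Genes that store and mask maternal mRNA, and those that the embryo needs from its mother, also fell more often than they rose. The counts in this paragraph are to be read beside 29.7% lower and 37.5% higher of all genes. Of 17 storage genes 8 were lower and 3 higher (median -0.54). Zar1, which binds maternal mRNAs in the oocyte, fell 21.9-fold from 129 ± 39.0 to 6.02 ± 0.833 FPKM. Dazl, a germ cell RNA-binding protein, fell from 66.3 ± 18.5 to 13.6 ± 2.86 FPKM, and Lsm14b from 21.7 ± 8.56 to 2.56 ± 0.687 FPKM. Of 29 genes of the subcortical maternal complex and other maternal effect genes, 20 were lower and 2 higher (median -1.33). Ooep and Tle6 of the subcortical complex were lost, with Ooep falling from 325 ± 59.4 to 56.9 ± 3.63 FPKM, and Padi6, which belongs to the cytoplasmic lattices, fell from 45.2 ± 7.27 to 3.14 ± 0.243 FPKM. Dnmt1, the maintenance DNA methyltransferase, had 7.63, 9.39, 9.11, 10.0 and 8.62 FPKM in MII and 0.532, 0.455, 0.353 and 0.426 FPKM in 2cell samples and fell 17.8-fold (adjusted p = 5.3e-09). Of the 25 genes of replication licensing and S phase 15 were lower and 3 higher. Mcm4, a subunit of the replicative helicase, fell from 8.13 ± 1.68 to 1.65 ± 0.335 FPKM, while Ccne1, which encodes cyclin E1, rose from 0.502 ± 0.146 to 17.0 ± 3.39 FPKM.

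Proteasome RNAs were largely lower. Of 31 subunit genes 29 passed the filter, 19 were lower and 5 higher, against 29.7% and 37.5% of all genes, and the median log2 fold change was -1.19. Losses included the core subunits Psma7, Psma4 and Psma2 and, in the regulatory cap, Psmd12, which fell from 12.4 ± 0.560 to 1.23 ± 0.149 FPKM, and Psmc5 (7.20 ± 0.658 to 0.964 ± 0.522 FPKM). The rises were called for Psma5, Psmb1, Psmb4, Psmb5 and Psmb7, of which Psmb4 was the most abundant, at 2.39 ± 0.588 and 10.5 ± 1.31 FPKM.

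**Figure D3:**
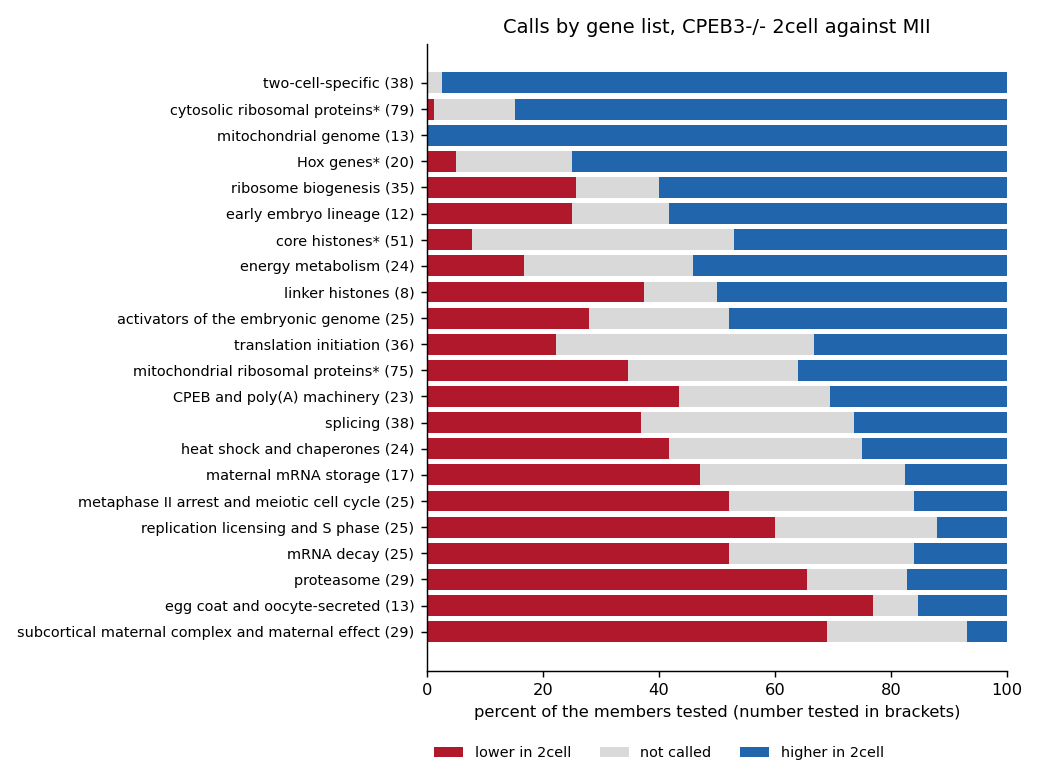
Share of the tested members of each gene list (x axis, percent, number tested in brackets) that were called lower (red), not called (grey) or called higher (blue) in CPEB3-/- 2cell embryos against MII oocytes. Lists of stored maternal functions stand at the bottom, with 20 of 29 maternal effect genes lower, and 2cell-specific genes at the top, with 37 of 38 higher. Of all genes tested 29.7% were lower and 37.5% higher. Lists with an asterisk were added after values had been seen.

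The 6 retained protein-coding RNAs with the highest level in MII samples were Sap18b, Dppa3, Khdc1b, Oog3, Gm10273 and Eif1. Dppa3, also called Stella, which protects maternal DNA methylation in the zygote, had 479.6, 649, 685, 750.4 and 728 FPKM in MII and 890.4, 930.4, 1004 and 604 FPKM in 2cell samples (log2 0.27, 95% interval -0.17 to 0.71), and after quantile scaling its log2 fold change was -0.64. Khdc1b, a KH domain gene, had 414, 459, 406, 397 and 473 and 395, 425, 442 and 366 FPKM (log2 -0.18, 95% interval -0.43 to 0.07). Eif1, which takes part in start codon choice, had 286 ± 18.5 FPKM in MII and 332 ± 40.0 FPKM in 2cell samples, with a log2 difference of 0.11 (95% interval -0.14 to 0.36). For Khdc1b and Eif1 the intervals stayed within 1.5-fold, that is within 0.58 on the log2 scale in this scaling. With equal FPKM sums and after quantile scaling the log2 fold change of Khdc1b was -0.65 and -0.72, past the threshold, and that of Eif1 -0.365 and -0.10. Sap18b (log2 -0.40, 95% interval -0.68 to -0.13) and Gm10273 (log2 -0.50, -0.76 to -0.24) had adjusted p-values under 0.05 but missed the fold threshold, and the interval of Oog3 (-1.14 to 0.26) reached beyond it. Other retained RNAs included Obox5 at 162 ± 53.8 and 212 ± 61.0 FPKM, Pou5f1, which encodes the pluripotency factor OCT4, at 6.21 ± 1.88 and 5.62 ± 1.07 FPKM, and Wee2, an oocyte kinase that inhibits CDK1, at 16.7 ± 1.81 and 22.9 ± 2.85 FPKM.

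The embryonic RNAs, under 0.1 FPKM in MII samples by definition, reached up to 136 ± 20.1 FPKM in 2cell samples. Rpp25 (chr9:57504026-57505449), a subunit of the RNA-processing enzymes RNase P and RNase MRP, had 0.123, 0, 0.132, 0.0335 and 0.0321 FPKM in MII and 94.6, 73.5, 65.9 and 81.6 FPKM in 2cell samples. Mcts2, a translation factor gene, had 0.0480, 0.111, 0, 0.0522 and 0 and 52.6, 54.6, 50.2 and 52.7 FPKM and thus the narrowest spread among 2cell samples in this group. Tsga8, known from the testis, reached 58.4 ± 9.83 FPKM, Spz1, a transcription factor also known from the testis, 51.7 ± 14.4 FPKM, Gm4340 136 ± 20.1 FPKM and AC153137.1 74.3 ± 22.1 FPKM, all from under 0.1 FPKM. Fitted log2 fold changes of these 6 genes ranged from 8.23 to 9.59 and depend on the pseudocount of 0.1 FPKM. Among the 8 largest rises of abundant genes, Mt2, a metal-binding metallothionein, went from 1.06, 0.783, 0.727, 0.368 and 0.606 FPKM in MII to 403, 320.1, 305 and 467 FPKM in 2cell samples, a rise of 445-fold (adjusted p = 1.0e-09). Gm2001, Gm16381, Gm6803 and AF067061 rose by between 8.73 and 8.99 on the log2 scale. Genes in multicopy families can share reads with near-identical copies, and 1.37% of the values above 0 lay under 1e-06 FPKM, so the split between copies is uncertain.

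The known 2cell-specific genes were higher in CPEB3-/- 2cell embryos than in CPEB3-/- MII oocytes. All 38 passed the filter, 37 were higher, against 37.5% of all genes, and Sp110 was not called, with a median log2 fold change of 5.82. Of the 37, 19 were in the embryonic class and so passed the filter through the 2cell samples, which fixes the direction of their change. In the Zscan4 family, which encodes zinc finger proteins tied to telomere maintenance, Zscan4a had 0.105, 0.0880, 0.0639, 0.127 and 0.0546 FPKM in MII and 34.5, 38.6, 35.3 and 23.4 FPKM in 2cell samples and Zscan4f 0.666, 0.726, 1.05, 1.67 and 0.734 and 63.6, 82.7, 64.0 and 42.4 FPKM. Zscan4d rose from a higher base, with 7.07, 10.4, 9.92, 14.3 and 7.80 FPKM in MII and 50.3, 64.7, 48.9 and 38.9 FPKM in 2cell samples. Zfp352, a zinc finger gene, had 0.0467, 0.0881, 0.0615, 0.0508 and 0.0596 and 30.5, 45.0, 41.3 and 38.9 FPKM, without overlap. Of the deubiquitinase genes of the Usp17l family, Usp17lc went from 0.365 ± 0.237 to 15.0 ± 2.30 FPKM and Usp17lb from 0.381 ± 0.257 to 51.8 ± 4.88 FPKM. Tcstv1 and Tcstv3 were already present in MII samples at 35.1 ± 5.47 and 6.64 ± 1.76 FPKM and reached 153 ± 12.3 and 152 ± 18.2 FPKM. The copies of Eif1a that are specific to this stage rose from under 1 FPKM to 175 ± 11.7 FPKM (Gm5662), 157 ± 33.0 FPKM (Gm4027) and 81.2 ± 13.6 FPKM (Gm2022). Duxf3, the upstream activator of this program, was at 0.0650, 0.0188, 0.209, 0.283 and 0.151 FPKM in MII and 0.396, 0.307, 1.16 and 0.516 FPKM in 2cell samples, a rise of 2.65-fold (adjusted p = 0.011) near the detection limit.

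Promoters of 3 of these genes are shown because the genes rise together and carry different short motifs. Each is 300 bases from 250 before to 50 after the start (RefSeq, GRCm38.p6), on the gene's strand, with short motifs on either strand in capitals. The motifs searched were TATAAA for the TATA box, CCAAT for the core of NFY sites, TAATCC for the core of OBOX and related homeobox sites, and GAANNTTC for heat shock elements. Zscan4d lies at chr7:11166099-11166398 (minus strand), Usp17lc at chr7:103416446-103416745 (plus strand) and Zfp352 at chr4:90218570-90218869 (plus strand).
Zscan4d: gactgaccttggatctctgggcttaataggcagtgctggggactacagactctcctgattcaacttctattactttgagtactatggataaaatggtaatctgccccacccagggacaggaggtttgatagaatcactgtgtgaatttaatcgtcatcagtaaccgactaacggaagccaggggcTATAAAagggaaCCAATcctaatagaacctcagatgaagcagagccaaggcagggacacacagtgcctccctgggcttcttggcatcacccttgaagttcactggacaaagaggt
Usp17lc: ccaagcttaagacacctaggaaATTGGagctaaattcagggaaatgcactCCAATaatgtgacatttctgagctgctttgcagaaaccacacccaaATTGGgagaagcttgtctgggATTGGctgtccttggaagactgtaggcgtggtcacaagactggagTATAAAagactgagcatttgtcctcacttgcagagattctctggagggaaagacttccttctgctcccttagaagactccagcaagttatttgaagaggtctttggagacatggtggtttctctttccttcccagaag
Zfp352: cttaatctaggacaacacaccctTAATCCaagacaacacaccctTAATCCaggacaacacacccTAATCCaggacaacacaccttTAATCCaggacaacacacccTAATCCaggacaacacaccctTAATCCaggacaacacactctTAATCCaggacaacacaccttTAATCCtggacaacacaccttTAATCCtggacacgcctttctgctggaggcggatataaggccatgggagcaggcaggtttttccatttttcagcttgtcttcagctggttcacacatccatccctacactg
Zscan4d and Usp17lc hold a TATAAA beside CCAAT on one or the other strand, and Zfp352 holds repeated copies of TAATCC. Promoters were found for 20 of the 38 genes (22 promoters, some genes having more than 1). TATAAA was in 31.8% of these promoters and in 13.6% of all 32851 promoters, CCAAT in 77.3% and 37.4%, TAATCC in 27.3% and 7.06%, and the GC box GGGCGG in 9.09% and 35.7%, each counted on both strands. In the promoters of the genes tested these shares were 8.39% for TATAAA, 40.3% for CCAAT, 6.11% for TAATCC and 59.7% for GGGCGG. Among protein-coding embryonic genes TAATCC was in 10.3% of promoters. These are descriptions of the letters, and no factor was measured there. Copies of a family may share promoter sequence, which was not compared, so the promoters need not be independent.

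The genes that activate the embryonic genome did not share 1 course. Of 28 such genes 25 passed the filter, 12 were higher and 7 lower (against 37.5% and 29.7% of all genes), with a median log2 fold change of 0.36, or -0.10 with equal FPKM sums. Of the 12, 4 were in the embryonic class and so passed the filter through the 2cell samples, which fixes the direction of their change. Of the Obox homeobox genes, which help to open the embryonic program, Obox6 rose from 0.0340, 0.0393, 0.0365, 0.0222 and 0.0426 FPKM in MII to 12.9, 12.7, 9.89 and 10.2 FPKM in 2cell samples and Obox8 from 0.267 ± 0.205 to 27.7 ± 9.69 FPKM. The maternal members Obox2 and Obox7 fell, Obox2 13.4-fold from 272 ± 89.5 to 20.8 ± 3.85 FPKM. Dppa4, which opens the Dux locus, rose from 0.133 ± 0.0553 to 4.69 ± 1.10 FPKM, while its partner Dppa2 had 2.07 ± 0.251 and 1.65 ± 0.106 FPKM and was not called. Klf4, Klf5 and Crxos rose, and Klf17, the member of the Klf family that is maternal, fell from 52.0 ± 6.10 to 23.6 ± 3.08 FPKM. Of the NFY subunits, Nfya fell from 2.65 ± 0.499 to 0.305 ± 0.0631 FPKM and Nfyb had 2.30 ± 0.175 and 1.85 ± 0.489 FPKM and was not called.

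Of 35 ribosome biogenesis genes 21 were higher and 9 lower (median 1.71), against 37.5% higher and 29.7% lower of all genes. The count was 18 higher with equal FPKM sums, and 12 of 24 with a filter of 1 FPKM (median 0.41). Nop16 had 0.0371, 0.0428, 0.0398, 0.0131 and 0.0619 FPKM in MII and 22.7, 17.0, 19.3 and 21.6 FPKM in 2cell samples, Rrs1 went from 0.777 ± 0.316 to 31.9 ± 7.50 FPKM and Polr1c, a subunit shared by RNA polymerases I and III, from 0.314 ± 0.0237 to 15.5 ± 3.05 FPKM. In contrast Ncl, which encodes nucleolin, fell from 64.1 ± 5.24 to 15.9 ± 1.48 FPKM and Nop56, a core protein of box C/D particles, from 35.8 ± 2.92 to 7.57 ± 1.03 FPKM. Of the 79 cytosolic ribosomal protein genes, a list added after values had been seen, 67 were higher and 1, Rps15a, was lower. These counts stand against 37.5% higher and 29.7% lower of all genes, and the median log2 fold change was 2.46. Of the 67, 4 were in the embryonic class, which fixes the direction of their change. Rpl41 had 12.2, 14.1, 14.5, 7.86 and 10.2 FPKM in MII and 398, 241, 289.9 and 341 FPKM in 2cell samples and Rps19 0.127 ± 0.0190 and 8.16 ± 1.92 FPKM. Of 36 translation initiation factors 12 were higher and 8 lower in this scaling, against 37.5% and 29.7% of all genes, and more were lower than higher when the FPKM sums were made equal or after quantile scaling. Eif1a rose from 0.0370 ± 0.0145 to 1.98 ± 0.733 FPKM and Eif3e fell from 4.03 ± 0.751 to 0.409 ± 0.0290 FPKM. Of 38 splicing genes 10 were higher and 14 lower (median -0.22), against 37.5% and 29.7% of all genes. Snrpd2, a core protein of the spliceosome, rose from 0.545 ± 0.151 to 28.5 ± 2.93 FPKM, and Prpf6, which joins the tri-snRNP, fell from 4.55 ± 0.528 to 0.382 ± 0.0591 FPKM.

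Heat shock genes are among the earliest expressed in the mouse embryo. Of 24 heat shock and chaperone genes 6 were higher and 10 lower, against 37.5% and 29.7% of all genes. The inducible gene Hspa1a had under 1e-06, 0, under 1e-06, 0.0214 and under 1e-06 FPKM in MII and 10.6, 9.36, 7.26 and 12.7 FPKM in 2cell samples, and its near-identical copy Hspa1b 0.246 ± 0.0652 and 7.57 ± 2.61 FPKM. The maternal chaperone Hsp90aa1 fell from 109 ± 9.72 to 14.4 ± 0.710 FPKM. The Hspa1a promoter is shown because it holds the paired letters of a heat shock element (GAANNTTC). These letters were in 34.6% of the 26 promoters found for the list and in 7.86% of all promoters. The promoter lies at chr17:34972107-34972406 (minus strand), is drawn as the others and holds, in capitals, GAAGATTC and the reverse complement of CCAAT.
Hspa1a: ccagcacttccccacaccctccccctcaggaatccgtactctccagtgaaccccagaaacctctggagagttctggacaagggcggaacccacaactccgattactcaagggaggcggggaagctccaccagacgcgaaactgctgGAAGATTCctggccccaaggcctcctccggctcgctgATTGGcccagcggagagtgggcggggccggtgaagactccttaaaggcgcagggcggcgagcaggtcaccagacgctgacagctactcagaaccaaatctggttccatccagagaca
Of 28 genes of energy metabolism 24 passed the filter, and 13 were higher and 4 lower, against 37.5% and 29.7% of all genes. Tpi1, Pgk1, Pgam1, Gapdh, Aldoa and Pkm of glycolysis were higher, Tpi1 rising from 0.878 ± 0.133 to 8.86 ± 1.65 FPKM. Ldha rose from 0.00634 ± 0.00442 to 2.60 ± 0.178 FPKM and Ldhb, the maternal lactate dehydrogenase, fell from 85.6 ± 6.58 to 33.4 ± 6.41 FPKM. All 13 mitochondrial genome genes were higher, against 37.5% of all genes, with a median log2 fold change of 2.13. Among 18 early lineage genes 12 passed the filter, with 7 higher and 3 lower (median 1.53), against 37.5% and 29.7% of all genes. Eomes, Krt8 and Krt18, on average under 0.1 FPKM in MII, passed through the 2cell samples. Without the filter 8 of 18 were higher (median 0.32). Sox2 rose from 0.389 ± 0.227 to 12.8 ± 3.22 FPKM, while Nanog and Cdx2, which mark later lineages, lay under 0.1 FPKM in both groups on average. Of the 9 linker histone genes 8 passed the filter. H1f0, which was already present in MII samples, rose from 14.6 ± 1.90 to 37.5 ± 5.46 FPKM, while H1foo was lost. Hist1h1e fell from 19.8 ± 6.32 to 3.96 ± 0.787 FPKM. Histone RNAs of this kind lack long poly(A) tails in dividing cells, so tail and amount cannot be told apart in their levels. Of 51 core histone genes tested, a list added after values had been seen, 24 were higher and 4 lower, against 37.5% and 29.7% of all genes. Of the 24, 3 were in the embryonic class, which fixes the direction of their change. The oocyte and testis variants Hist1h2aa and Hist1h2ba were among those that fell.

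The same transition was then set beside that in heterozygotes. Of 12541 genes tested in both genotypes, 7558 were called in the same direction and 12 in opposite directions, 907 were called in CPEB3-/- samples only and 1170 in heterozygotes only. Of the 804 RNAs lost in CPEB3-/- samples, 798 were also lower in heterozygous embryos, where 4115 of all 13742 genes tested were lower. Of the 911 embryonic RNAs 896 could be tested there and 892 were higher, a count close to fixed, since a gene near 0 in MII oocytes is tested only if it is high in heterozygous 2cell embryos. Across genes the log2 fold changes had a Pearson r of 0.952, a description over genes that are not independent. A call in 1 genotype alone does not show a difference, so the difference itself was tested as the interaction of stage and genotype over all 19 samples and 15786 genes. It was called for 1206 genes. In 586 of them (3.71%) the log2 change from MII to 2cell was higher in CPEB3-/- samples and in 620 (3.93%) it was lower. The split between them depended on the scaling, with 40.2% higher among the calls as deposited, 65.8% with equal FPKM sums and 48.6% in the scaling used here. It also depended on CPEB3-/- MII sample A, without which 472 genes were higher and 754 lower (38.5% higher). Of the 586 genes, 472 had the larger gap between genotypes in 2cell embryos and 114 in MII oocytes, and of the 620 genes these numbers were 481 and 139. By class, the difference was higher in 107 and lower in 30 of the 911 embryonic genes, 31 and 88 of the raised genes, 33 and 69 of the retained, 45 and 70 of the reduced and 23 and 45 of the lost genes. The classes were cut from the same CPEB3-/- values that enter the difference, which by itself favours higher differences among embryonic and raised genes and lower ones among lost genes, so these counts are a description and support no reading of the classes.

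**Figure D4:**
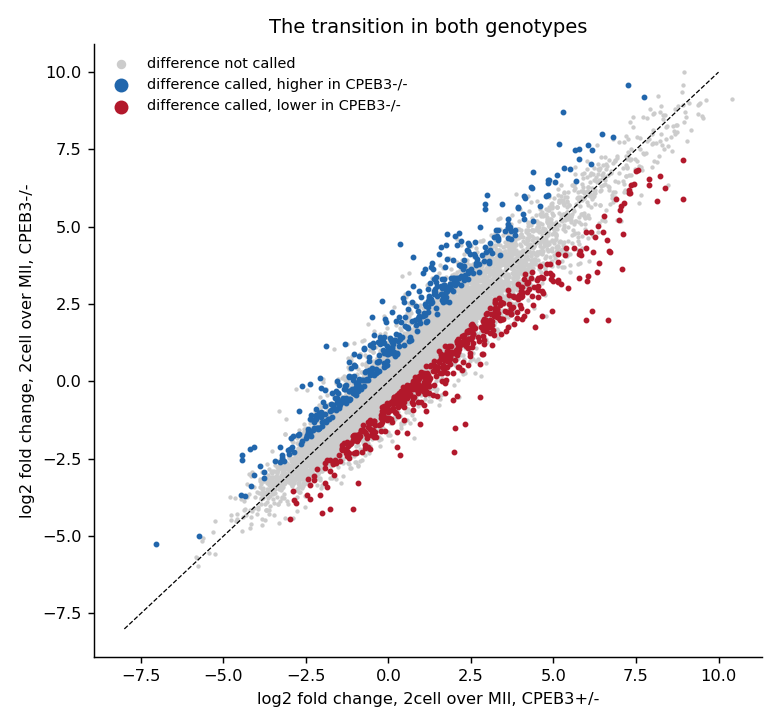
Log2 fold change from MII to 2cell of each gene tested in both genotypes, in heterozygotes (x axis) and in CPEB3-/- samples (y axis), on the log2(FPKM + 0.1) scale. Points follow the dashed line of equal change, and coloured points mark genes whose difference was called, with blue for higher and red for lower in CPEB3-/- samples (586 and 620 of all 15786 genes tested).

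Zscan4d, Zscan4c and Zscan4f rose less in CPEB3-/- samples than in heterozygotes. Zscan4d had 1.19, 0.883, 1.51, 0.825 and 1.35 FPKM in heterozygous MII and 169, 117, 58.8, 85.2 and 91.8 FPKM in heterozygous 2cell samples, so every CPEB3-/- MII sample given above lay above every heterozygous one, while the 2cell groups overlapped. The log2 rise was 2.27 in CPEB3-/- samples and 6.17 in heterozygotes, a difference of -3.88 (95% interval -4.71 to -3.05, adjusted p = 2.5e-05). Zscan4c (difference -2.75, adjusted p = 0.0033) and Zscan4f (-2.32, 0.01) followed, while for Zscan4a, Zscan4b and Zscan4e no difference was called (95% intervals -1.14 to 0.24, -1.74 to 0.30 and -2.43 to -0.21). Of the 38 2cell-specific genes the difference was lower in 5, Pramel6 among them, and higher in 2, Tmem92 and Gm20767, against 3.93% and 3.71% of all genes. In 3 of the 5 the larger gap between genotypes was in MII oocytes. Without heterozygous 2cell sample C it was lower in 8. For Zfp352 no difference was called (95% interval -0.49 to 0.34).

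Several activators of the embryonic genome rose less in CPEB3-/- samples. The difference was lower in 6 of 27 tested and higher in 1, against 3.93% and 3.71% of all genes. All 6 had the larger gap between genotypes in 2cell embryos. Spic, which encodes the ETS factor SPI-C, had 0.0916, 0.188, 0.0922, 0.0823 and 0.0661 FPKM in CPEB3-/- MII and 4.48, 2.09, 1.55 and 2.66 in CPEB3-/- 2cell samples, and 0.0226, 0.0421, 0.0454, 0.0996 and 0.0299 FPKM in heterozygous MII and 21.3, 29.2, 14.7, 15.7 and 28.6 in heterozygous 2cell samples. The 2cell groups did not overlap, and the rise was 3.63 against 7.08 on the log2 scale (difference -3.48, 95% interval -4.27 to -2.69, adjusted p = 4.7e-05). Obox6 reached 9.89 to 12.9 FPKM in CPEB3-/- and 23.3 to 48.1 FPKM in heterozygous 2cell samples (difference -1.61, adjusted p = 0.002), and Obox8 18.7 to 38.4 and 52.0 to 96.2 FPKM (-2.13, 0.021). Gabpa, an ETS factor of zygotic activation, reached 2.43 to 3.55 and 6.91 to 12.7 FPKM (-1.64, 0.00014). Obox3 and Nfyb were the other lower genes, and Yap1, which encodes the coactivator YAP, was the higher one. The study itself names Spic, Eif1a and Zscan4 from the same samples, so they are no independent evidence of a direction.

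Of 31 proteasome genes, 14 had a lower difference, against 3.93% of all genes, which means that they fell further or rose less in CPEB3-/- samples. It was higher in 0 and not called in 17, with a median of -0.69 against 0.04 over all genes tested, and it was lower in 9 to 14 genes under the other settings. Psmd12 had a log2 fold change of -3.33 in CPEB3-/- samples and of -2.37 in heterozygotes (difference -0.93, 95% interval -1.29 to -0.57, adjusted p = 0.0031). Psmc4, an ATPase of the regulatory cap, had 2.35, 2.02, 1.74, 2.12 and 1.78 FPKM in CPEB3-/- MII and 0.847, 0.966, 0.672 and 0.874 FPKM in CPEB3-/- 2cell samples, a fall, and 1.31, 1.79, 1.45, 2.06 and 2.27 and 1.84, 2.04, 1.60, 1.85 and 2.04 FPKM in heterozygotes, where it was not called (difference -1.17, adjusted p = 0.0012). Psmd14, the deubiquitinase of the cap, had 0.0952 to 0.179 FPKM in CPEB3-/- and 0.229 to 0.710 FPKM in heterozygous 2cell samples (-1.21, 0.013). The calls of Psmb1 and Psmb7 also belong to the 14. In 12 of the 14 genes the larger gap between genotypes was in 2cell embryos. Psma7, with the largest fall of the family, had a difference of -0.10 (95% interval -0.49 to 0.28).

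**Figure D5:**
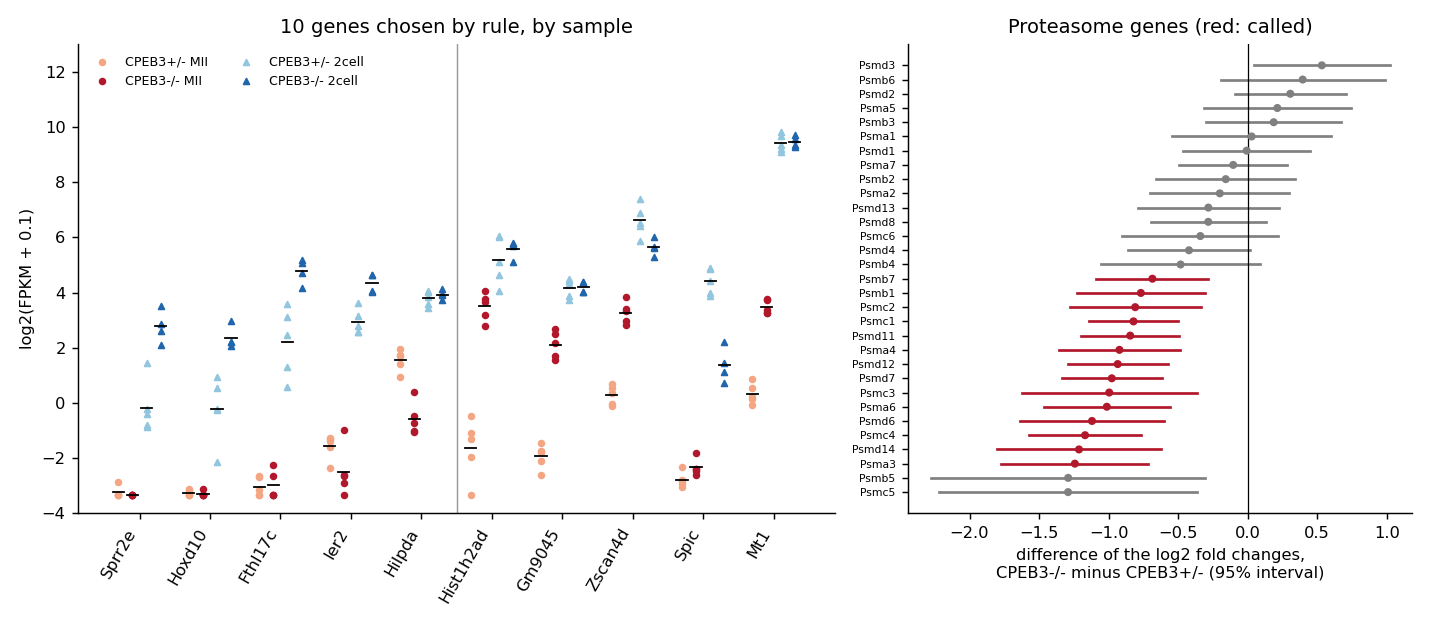
Left, level of each sample (y axis, log2(FPKM + 0.1)) of the 5 genes with the largest positive and the 5 with the largest negative difference among protein-coding genes reaching a group mean of 5 FPKM, in heterozygous (light) and CPEB3-/- (dark) MII (circles) and 2cell (triangles) samples, with bars for means. Right, difference of the log2 fold changes, CPEB3-/- minus CPEB3+/-, of the 31 proteasome genes with 95% intervals. The 14 called genes (red) all lie below 0.

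Among the 5 largest positive differences, 4 were those of RNAs near 0 in MII oocytes and higher in CPEB3-/- than in heterozygous 2cell embryos. Sprr2e, a small proline-rich protein of cornified epithelia, was listed at 0 in all CPEB3-/- MII samples and had 4.24, 11.2, 7.22 and 6.06 FPKM in CPEB3-/- 2cell samples, against 0.662, 0.478, 0.754, 2.60 and 0.454 FPKM in heterozygous 2cell samples (difference with the pseudocount of 0.1 FPKM 2.99, 95% interval 1.97 to 4.01, adjusted p = 0.0012). Hoxd10 had 4.48, 4.47, 7.83 and 4.10 FPKM in CPEB3-/- and 1.80, 0.753, 1.37, 0.127 and 0.731 FPKM in heterozygous 2cell samples without overlap (difference 2.59, 0.0074). Fthl17c, related to the ferritin heavy chain, reached 18.01 to 36.1 and 1.402 to 11.9 FPKM (2.47, 0.023), and Ier2, an immediate early gene, 16.1 to 24.9 and 5.79 to 12.1 FPKM (2.39, 0.0072). For Ier2 the CPEB3-/- samples were also lower in MII, with a log2 gap between genotypes of -1.03 there and of 1.36 in 2cell samples. Hilpda, a lipid droplet protein induced by hypoxia, differed at the other end, with 0.386 to 1.22 FPKM in CPEB3-/- and 1.80 to 3.81 FPKM in heterozygous MII samples and 13.2 to 17.2 and 10.7 to 16.6 FPKM in 2cell samples (2.35, 0.00047). Of 34 Hox genes, developmental regulators added as a list after Hoxd10 had been seen, 20 passed the filter. Of these 15 were higher and 1, Hoxa7, was lower in 2cell embryos, against 37.5% and 29.7% of all genes. The other 14 did not pass, and a gene near 0 in MII oocytes passes only through the 4 2cell samples where it is high, so these counts are no support for a rise of the family. In heterozygotes 11 passed. The difference was higher in 5 of 21 and lower in 0 (3.71% and 3.93% of all genes), or higher in 2 of 5 with a filter of 1 FPKM. This count depends on the filter in the same way and includes Hoxd10, for which the list was added. The 5 were Hoxd10, Hoxa9, Hoxc10, Hoxc13 and Hoxd1, all of which except Hoxd10 stayed under 2 FPKM on average. The inducible Hspa1a rose by 6.51 and 4.84 on the log2 scale in CPEB3-/- samples and in heterozygotes (difference 1.62, adjusted p = 0.00019).

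Among the largest negative differences, some had the larger gap between genotypes in MII oocytes. Hist1h2ad, an H2A gene, had 12.6, 6.78, 16.6, 9.04 and 13.6 FPKM in CPEB3-/- and 0.628, 0.301, 0.366, 0.159 and under 1e-06 FPKM in heterozygous MII samples, and overlapping 2cell levels of 34.3 to 55.2 and 16.7 to 65.7 FPKM (difference -4.67, 95% interval -6.11 to -3.23, adjusted p = 0.00049). Mt1, a metallothionein, had 13.2, 9.52, 13.4, 10.2 and 9.37 FPKM in CPEB3-/- and 1.06, 1.37, 1.01, 0.855 and 1.70 FPKM in heterozygous MII samples and 614 to 826 and 538 to 895 FPKM in 2cell samples (-3.001, 2.4e-06). Gm9045 differed in the same way, with 2.84 to 6.30 and 0.0655 to 0.263 FPKM in MII samples (-3.98, 3.0e-06). Every CPEB3-/- MII sample lay above every heterozygous one in these 3 genes, and their 2cell levels overlapped. Mos and Plat were lower, not higher, in CPEB3-/- MII samples. Mos had 157 to 266 FPKM in heterozygous MII samples, above every CPEB3-/- MII sample, and its fall was smaller in CPEB3-/- samples (difference 1.81, 95% interval 0.90 to 2.71, adjusted p = 0.015). Plat, which falls outside the rule for named genes and was chosen for its sequence with its values in view, had 4.04, 4.08, 4.75, 4.51 and 4.63 FPKM in CPEB3-/- and 15.1, 20.8, 16.4, 16.4 and 16.7 FPKM in heterozygous MII samples and 0.571 to 1.06 and 0.757 to 0.797 FPKM in 2cell samples (difference 2.08, 95% interval 1.70 to 2.47, adjusted p = 4.3e-06). Gdf9 and Khdc1b, shown above for the same letters, also had a higher difference (0.84 and 0.68), while for H1foo (95% interval -0.27 to 0.60) and Btg4 (-0.71 to 1.37) none was called, nor for Bub1b, whose difference of 0.52 missed the fold threshold.

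For the other lists the counts of called differences are read beside the 3.71% higher and 3.93% lower of all genes. The difference was lower in 8 and higher in 1 of 79 cytosolic ribosomal protein genes, among them Rplp0 (-0.63) and Rps4x (-1.06). The count in ribosomal protein genes rested on single samples and on the scaling, as it was 19 without heterozygous 2cell sample A, 3 without heterozygous MII sample D and 2 with equal FPKM sums. It was lower in 5 and higher in 1 of 36 initiation factors, among them Eif3m (-1.25) and Eif1a (-1.04). The lower count of initiation factors was 3 without heterozygous 2cell sample D or E, heterozygous MII sample B or D, CPEB3-/- 2cell sample B or CPEB3-/- MII sample E, and 2 with the sample letter as a block. In the 24 chaperone genes it was lower in 5, with Hspa5, the chaperone of the endoplasmic reticulum (-1.07), and Hspb1 (-1.84) among them, and higher in 3. The lower count of chaperones was 3 without heterozygous 2cell sample D, heterozygous MII sample E or CPEB3-/- 2cell sample B. In maternal effect genes it was higher in 3 of 29 (Ooep, Kdm1b and Sohlh1) and lower in 0, and higher in 5 without heterozygous 2cell sample A. In mRNA decay it was higher in Cnot3 only, in the poly(A) machinery lower in Pabpn1 only, and in storage genes it was called in 0 of 17. In the meiotic list it was higher in Mos and Fzr1 and lower in Cdk1, in the egg coat list higher in Gdf9 and Fgf8 and lower in Cd9, and in early lineage genes higher in 2 of 12, Sox2 among them. For ribosome biogenesis it was lower in 2 of 35, Nob1 and Heatr1 (5 without heterozygous 2cell sample A), for splicing lower in 2 and higher in 1 of 38, for energy supply 2 each way of 24, and for replication higher in 2 of 25, Mcm2 and Ccne1. With equal FPKM sums the order of the counts changed in chaperones, in splicing genes and in the poly(A) machinery, where it became 2 higher and 1 lower. It also changed in chaperones with a pseudocount of 1 FPKM, in splicing genes with a filter of 1 FPKM, and in splicing and egg coat genes with the GC trend removed. Splicing genes turned to 2 higher and 1 lower without heterozygous 2cell sample E or CPEB3-/- 2cell sample C. The poly(A) machinery did so without heterozygous 2cell sample D. The lower count of energy genes was 1 without any of several samples, heterozygous 2cell samples B, D and E among them. The lower count of meiotic genes was 3 without CPEB3-/- MII sample A and 2 without heterozygous 2cell sample A, without which the higher count of storage genes was also 2. Of the differences named above, 12 were not called when at least 1 of the 19 samples was left out. These were Cdk1, Cnot3, Eif1a, Fgf8, Hoxa9, Khdc1b, Psmb1, Psmb7, Sohlh1, Sox2 and Yap1, each with 9 or more such samples, and Rplp0, with heterozygous 2cell sample D alone. Under other settings with all samples, the differences of Fzr1, Heatr1, Hoxc10, Hoxc13, Kdm1b, Ldha and Psmd14 were also not called with a pseudocount of 1 FPKM, nor that of Ooep after quantile scaling.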

How the data were processed

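RNA of 5 cells per sample was converted to cDNA with poly(A) priming (SMART-seq v4), sequenced paired-end and processed by the authors with Trim Galore 0.4.1, HISAT2 2.0.5 and SeqMonk on GRCm38. The deposited table, although named as raw counts, holds FPKM values, so count tests were not used. Depth was estimated from the steps between low FPKM values, of which 38.5% lay within 0.05 of a whole fragment (10% if uniform). Genes with at least 0.1 FPKM in 4 samples were scaled by a trimmed mean (30% of ratios, 5% of levels) and tested on log2(FPKM + 0.1) with limma 3.58.1 (R 4.3.3) with a variance trend and Benjamini-Hochberg adjustment, and called at adjusted p under 0.05 and more than 1.5-fold. The transition was fitted in the 9 CPEB3-/- samples, and the difference between genotypes as an interaction over 19 samples. Sums of markers were compared by a two-sided exact permutation test. Named genes were the 8 largest rises and 8 largest falls among non-overlapping protein-coding genes reaching 10.0 FPKM, the 6 most abundant retained and 6 most abundant embryonic genes, the 5 largest differences in each direction, list members, and genes the study names. Members and lists were chosen with earlier results of these data known. Alternatives covered scaling, pseudocount, filter, variance trend, GC content, fold threshold, replicate block and leaving out each sample. All 19 columns of the table were matched to samples, and 25640 genes had an annotation. Python 3.11.15 with pandas 2.3.3 and scipy 1.17.1 was used for summaries.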

Additional observations from a re-analysis of the deposited data

Results flagged for a closer look

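Over the 173 genes named above, 5 summed marker and Y-linked lists, the depth and the mitochondrial share, 359 groups of CPEB3-/- samples with values that varied were examined for a single sample far from the rest of its group, and 27 were found where about 17.95 would be expected by chance, at 1 in 20 groups. Several concern genes near 0, where a single sample carried the only signal.

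A sample lay above its group for Cdc25c in 2cell sample B (1.45 FPKM, the others 0.914 to 0.987), Cdx2 in MII sample C (0.0436 FPKM, the others 0), Hilpda in MII sample C (1.22 FPKM, the others 0.386 to 0.618), Hoxc10 in MII sample D (0.0280 FPKM, the others 0), Hoxd10 in MII sample C (0.0148 FPKM, the others 0) and Hoxd10 in 2cell sample C (7.83 FPKM, the others 4.10 to 4.48). It also did so for Hspa1a in MII sample D (0.0214 FPKM, the others 0 to under 1e-06), Ier2 in MII sample A (0.403 FPKM, the others 0 to 0.0626), Nanog in MII sample A (0.00364 FPKM, the others 0), Nfya in MII sample A (3.52 FPKM, the others 2.32 to 2.55), Pgk1 in 2cell sample D (2.97 FPKM, the others 2.18 to 2.30) and Psmb4 in MII sample A (3.42 FPKM, the others 1.93 to 2.25). It also did so for Sohlh1 in MII sample E (0.0107 FPKM, the others 0), Sox2 in MII sample A (0.788 FPKM, the others 0.246 to 0.347), Spic in MII sample B (0.188 FPKM, the others 0.0661 to 0.0922), Zfp36l2 in MII sample C (1.02 FPKM, the others 0.447 to 0.557) and Zp2 in MII sample D (2.10 FPKM, the others 1.61 to 1.72).

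A sample lay below its group for Cnot6l in MII sample B (3.005 FPKM, the others 3.69 to 3.84), Cpeb3 in 2cell sample B (0.0362 FPKM, the others 0.0599 to 0.0633), Cpeb4 in 2cell sample B (0.614 FPKM, the others 0.780 to 0.803), Mcm2 in MII sample E (8.81 FPKM, the others 10.00 to 10.4), Nob1 in MII sample D (0.0471 FPKM, the others 0.133 to 0.155) and Polr1c in MII sample C (0.272 FPKM, the others 0.320 to 0.331). The same held for Psma2 in MII sample A (2.79 FPKM, the others 4.32 to 4.83), Psmc5 in 2cell sample D (0.184 FPKM, the others 1.16 to 1.29), Sohlh1 in 2cell sample B (0.215 FPKM, the others 0.640 to 0.719) and Usp17lb in 2cell sample C (44.5 FPKM, the others 54.1 to 54.6).

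The change from MII to 2cell differed between the genotypes, by the limma interaction test with both thresholds given above, for 58 of the 173 genes named. Of all genes it was higher in 3.71% and lower in 3.93%. Some of the 173 were named because their difference was large or called, so the count cannot be set against these shares. Values are the log2 change in CPEB3-/- samples minus that in heterozygotes. The difference was positive for Sprr2e (2.99), Hoxd10 (2.59), Fthl17c (2.47), Ier2 (2.39), Hilpda (2.35), Gm4340 (2.31), Plat (2.08), Mos (1.81), Hspa1a (1.62) and Sox2 (1.43). Further positive values were those of Hoxd1 (1.397), Hoxc10 (1.36), Tmem92 (1.32), Hoxa9 (1.31), Hoxc13 (1.28), Sohlh1 (1.18), Fzr1 (1.002), Fgf8 (0.999), Mcm2 (0.95) and Ccne1 (0.92). Further positive values were those of Ldha (0.84), Gdf9 (0.84), Kdm1b (0.82), Gm20767 (0.78), Ooep (0.72), Khdc1b (0.68), Yap1 (0.67) and Cnot3 (0.63).

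The difference was negative for Hist1h2ad (-4.67), Gm9045 (-3.98), Zscan4d (-3.88), Spic (-3.48), Mt1 (-3.001), Zscan4c (-2.75), Zscan4f (-2.32), Obox8 (-2.13), Hspb1 (-1.84) and Pramel6 (-1.73). Further negative values were those of Gabpa (-1.64), Obox6 (-1.61), Pabpn1 (-1.55), Nob1 (-1.52), Cd9 (-1.397), Obox3 (-1.36), Eif3m (-1.25), Psmd14 (-1.21), Psmc4 (-1.17) and Hspa5 (-1.07). Further negative values were those of Rps4x (-1.06), Eif1a (-1.04), Nfyb (-1.01), Psmd12 (-0.93), Psma4 (-0.92), Heatr1 (-0.91), Psmb1 (-0.77), Cdk1 (-0.75), Psmb7 (-0.69) and Rplp0 (-0.63).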

How the results depend on the processing

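The balance of rises and falls, the number of calls, the classes and several marker sums moved with the processing. For the transition in CPEB3-/- samples, 9044 genes were called. With a pseudocount of 1 FPKM 5263 were called (3084 higher, 2179 lower), with a filter of 1 FPKM 4399 (2290.0 higher, 2109 lower), and at more than 4-fold 3618 (2663 higher, 955 lower, 73.6% higher). The filter tests fewer genes and the last asks for a larger change, while for the pseudocount the cause was not tested. Higher genes were 44.8% of the calls with equal FPKM sums and 41.5% after quantile scaling. With the mitochondrial genome left out of the equal sums, an alternative chosen after seeing the data, they were 48.7%. For the difference between genotypes, 1206 genes were called, and 790.0 with a pseudocount of 1 FPKM (365 higher) and 795 with a filter of 1 FPKM (335 higher), while equal FPKM sums gave 65.8% higher. The lost class held 1278 genes with equal FPKM sums and 312 with a pseudocount of 1 FPKM. With a maternal level of 5 FPKM there were 1670.0 maternal genes, of which 400.0 were lost, 515 reduced, 496 retained and 259 raised. With equal FPKM sums the exact permutation p was 0.0714 for cumulus and granulosa markers, 0.151 for sperm markers, whose mean sum turned to 2.97 FPKM in MII and 2.62 in 2cell samples, and 0.0238 for blood markers without alpha globin. The cause of these shifts was not tested.

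Leaving out 1 sample gave 8820.0 to 9329 calls for the transition and 919 to 1494 for the difference, with 38.5 to 52.8% higher, the lowest share coming without CPEB3-/- MII sample A. Among the genes named, 15 transitions were not called with a pseudocount of 1 FPKM, those of Cd9, Cpeb3, Cpeb4, Duxf3, Fgf8, Fzr1, Heatr1, Hoxa9, Hoxc10, Hoxc13, Kdm1b, Obox3, Pabpc1l, Psma5 and Psmb7. The log2 fold change of Dppa3 turned to -0.64 after quantile scaling and that of Fgf8 to -0.13 with the GC trend removed, and the difference of Hist1h1e turned to -0.91 with a pseudocount of 1 FPKM. Values near 0 turned sign without a call, among them that of Eif1, from 0.11 to -0.365 with equal FPKM sums.

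The sample letters gave no sign of pairing in the CPEB3-/- samples, the only ones in which this was examined. Same-letter MII and 2cell samples had correlations of -0.102 to -0.002 in their deviations from the group means. With the letter as a replicate block 8858 genes were called for the transition and 827 for the difference (391 higher, 436 lower). Among the genes named, the calls of 8 differences and 1 transition were lost with this block. At the depth of these samples 10 fragments on a transcript of median length amount to 0.21 FPKM, which limits what can be seen of genes near 0.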

Other observations

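Of 78 genes of mitochondrial ribosomal proteins, a list added after values had been seen, 75 passed the filter in the CPEB3-/- samples. Of these 27 were higher and 26 lower in 2cell embryos (median log2 fold change -0.11), close to the 37.5% and 29.7% of all genes, and more were lower than higher with equal FPKM sums or after quantile scaling. The difference between genotypes was higher in 2 and lower in 4 of 76, against 3.71% and 3.93% of all genes, an order that turned with equal FPKM sums. Of 8 linker histone genes tested 4 were higher and 3 lower, against 37.5% and 29.7% of all genes. This order turned with equal FPKM sums, and no difference between genotypes was called. In 59 core histone genes tested for the difference it was higher in 1 and lower in 3, to be read beside the same shares, with Hist1h2ad among the lower ones.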
